A study of Homo sapiens with 2 samples.

Results

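Genes of the response to low oxygen were compared with the enzymes of glycolysis in EBC1-R and EBC1 cells. The group was a fixed list of 37 genes: 6 for hypoxia-inducible factor (HIF) subunits and their oxygen sensors, 2 for regulators of glycolytic flux, 12 for HIF targets outside glycolysis and 17 for glycolytic enzymes. Of these, 34 were measured by a probe set annotated to exactly 1 gene symbol, out of 18377 genes measured that way. Each of the 34 had 1 probe set. EGLN2 and PGAM1 were covered only by probe sets that name several genes, and CA9 was not analysed here.

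EBC1-R is the resistant line: EBC1 cells selected by stepwise exposure to PHA-665752, an inhibitor of the MET kinase, and kept afterwards in medium with 3 µM MET inhibitor. EBC1 is the line it came from, labelled wild type, a human lung squamous cell carcinoma line that carries an amplified MET gene. Both were grown with 10% fetal bovine serum. EBC1-R was grown in inhibitor and EBC1 was not labelled as treated, so resistance and exposure to the drug cannot be told apart. The sources used here do not give the oxygen level, glucose supply or density of the cultures.

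Each line was measured on 1 array, so no value has a replicate error, no test was possible, and the number of arrays limits the precision. Levels are log2 intensities as deposited, and a difference is the EBC1-R value less the EBC1 value. A size of 2-fold, or 1 log2 unit, was used for counting. A gene was above the level filter if 1 or both of its values were at or over 7.41, the median over genes of the brighter value. Of the 9189 genes above it, 2.13% (196) were higher in EBC1-R by 2-fold or more and 1.67% (153) were lower by that much, and 95% of differences lay between -0.85 and 0.92. Because the deposited columns had nearly the same distribution (medians of 6.71 in EBC1-R and 6.73 in EBC1), a change shared by most genes would not be seen. All 5 epithelial markers were above the level filter, and 4 of them were lower in EBC1-R, with a median difference of -0.78. KRT19 differed by -0.89, KRT8 by -0.83, KRT18 by -0.78, EPCAM by -0.08 and CDH1 by 0.10. Their part in the differences of the HIF and glycolysis genes was not tested. The 4 squamous markers measured (SOX2, KRT5, DSG3 and PKP1) were under it on both arrays, so the squamous origin of the line was not visible in them. Of markers of other cells, 1 of 4 leukocyte, 1 of 5 fibroblast and 0 of 4 endothelial genes measured were above the filter. These were CD68, at 11.45 in EBC1-R and 11.04 in EBC1, and COL1A1, at 7.61 in EBC1-R and 7.64 in EBC1.

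HIF is a transcription factor made of an oxygen-regulated alpha subunit and a stable beta subunit. When oxygen is present, prolyl hydroxylases of the EGLN family modify the alpha subunit, and the VHL ubiquitin ligase then marks it for degradation, so HIF is controlled mainly at the protein level. HIF that escapes degradation binds hypoxia response elements with the core RCGTG (R stands for A or G) and switches on genes for glycolysis, mitophagy, collagen modification, pH control and blood vessel growth. Many glycolytic enzymes are therefore HIF targets as well, and the split used here is by function.

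Both listed HIF alpha subunit genes were slightly lower in EBC1-R, while the oxygen sensor EGLN3 was much higher. HIF1A, the alpha subunit found in most cells, had a level of 12.51 in EBC1-R and 12.76 in EBC1. EPAS1, which encodes the HIF-2 alpha subunit, was at 9.74 in EBC1-R and 10.02 in EBC1. The differences were -0.25 and -0.27, well inside the range that held 95% of genes. VHL was at 8.76 in EBC1-R and 8.58 in EBC1, a difference of 0.18.

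EGLN3, a prolyl hydroxylase that is itself induced by HIF, had the largest difference of the 34 genes. Its level was 9.64 in EBC1-R and 7.36 in EBC1, a difference of 2.28 or 4.86-fold. Only 21 of the 18377 genes had a larger positive difference. The EBC1 value lay just under the level filter, so EGLN3 passed it through EBC1-R alone. EGLN1, the main oxygen sensor in most cells and also a HIF target, was 1.42-fold higher, at 8.89 in EBC1-R and 8.38 in EBC1. For EGLN2 the 1 probe set, which also names the readthrough RAB4B-EGLN2, was at 7.55 in EBC1-R and 7.70 in EBC1. The hydroxylase genes thus differed among themselves, with EGLN3 1.77 log2 units above EGLN1 in its difference.

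The PFKFB enzymes set the level of fructose 2,6-bisphosphate and so the rate of phosphofructokinase. Both PFKFB genes on the list of 37 were higher in EBC1-R, against 43.3% of all genes measured. PFKFB3, whose kinase activity dominates and which favours glycolysis, was at 9.77 in EBC1-R and 8.06 in EBC1, a 3.28-fold difference. PFKFB4 was at 7.32 in EBC1-R and 6.81 in EBC1, a difference of 0.51 with both values under the level filter.

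Of the 11 HIF targets outside glycolysis that were measured, 9 were higher in EBC1-R and 4 of them at least 2-fold. Over all 18377 genes measured, 43.3% were higher by any amount, 1.26% higher by 2-fold or more and 0.887% lower by 2-fold or more. Of the targets measured, 10 were above the level filter. Among the 9189 genes above it, 4557 were higher by any amount and 2.13% by 2-fold or more. No target was 2-fold lower. BNIP3, a receptor that marks mitochondria for removal by autophagy, was at 11.42 in EBC1-R and 9.85 in EBC1, a difference of 1.56 or 2.95-fold. Its paralog BNIP3L, with a like role, was at 11.64 in EBC1-R and 11.05 in EBC1, a difference of 0.59. Both were higher by unequal amounts, with the difference of BNIP3 larger by 0.97.

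P4HA1 and P4HA2, the catalytic subunits of collagen prolyl 4-hydroxylase, were higher to a similar extent. P4HA1 was at 10.97 in EBC1-R and 9.45 in EBC1, or 2.87-fold higher. P4HA2 was at 10.16 in EBC1-R and 8.82 in EBC1, or 2.55-fold higher. Their differences stood at the 99.6th and the 99.4th percentile of all genes. NDRG1, a stress-responsive gene that is strongly induced in hypoxic tumour cells, was at 11.79 in EBC1-R and 10.77 in EBC1. Its difference of 1.02 (2.02-fold) lay just past the size used for counting.

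The other targets differed less. ADM, which encodes the vasodilator peptide adrenomedullin, was at 8.62 in EBC1-R and 7.97 in EBC1, a difference of 0.65. ANGPTL4, an inhibitor of lipoprotein lipase, was at 9.08 in EBC1-R and 8.54 in EBC1. DDIT4, which restrains mTORC1 under stress, was at 10.97 in EBC1-R and 10.57 in EBC1. These 3 genes were 1.32-fold to 1.57-fold higher, all inside the central 95% of genes. ANKRD37 was at 7.51 in EBC1-R and 7.13 in EBC1, and passed the level filter through EBC1-R alone. VEGFA, the vascular endothelial growth factor and a classic HIF target, was at 11.60 in EBC1-R and 11.66 in EBC1, a difference of -0.05. CA12, a carbonic anhydrase that takes part in pH control, was under the level filter on both arrays, at 6.15 in EBC1-R and 6.27 in EBC1. The higher level was therefore not shared by all targets: VEGFA, among the bright genes of both arrays, was nearly level.

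**Figure D1:**
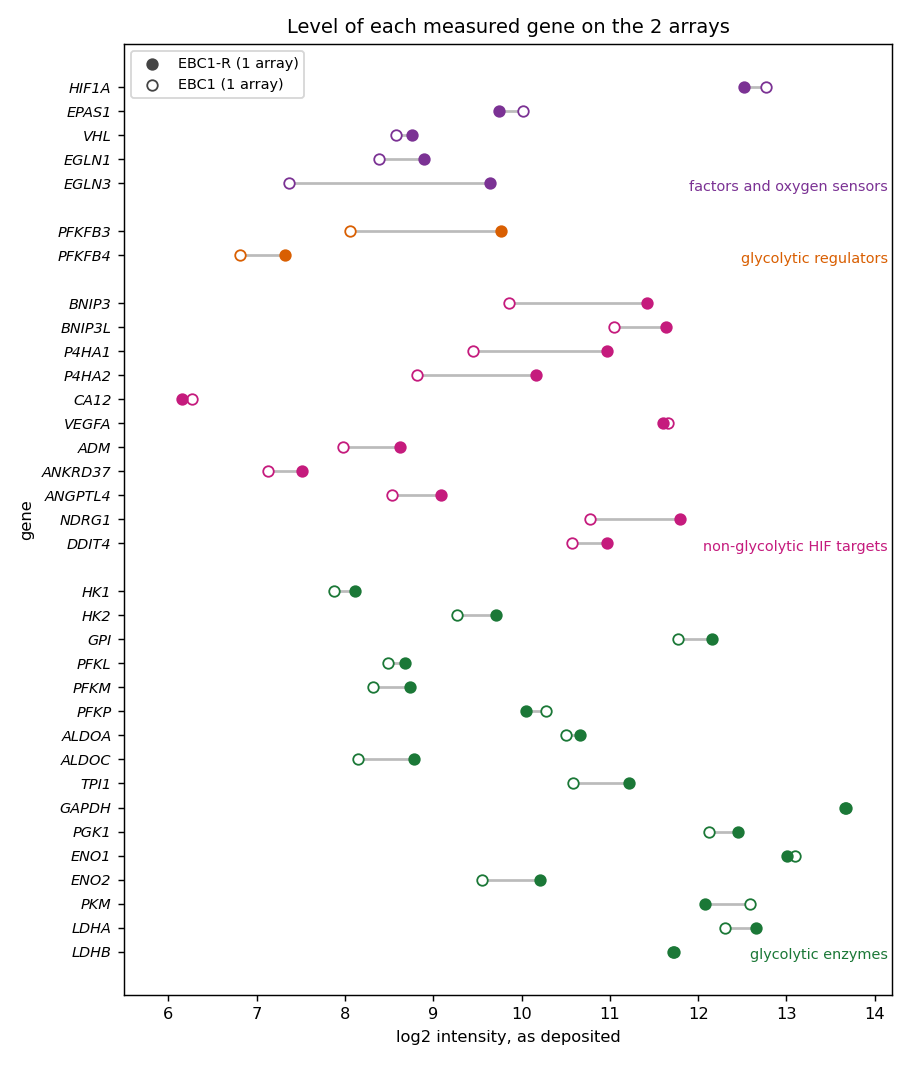
Level of each of the 34 measured genes on the log2 intensity scale, with 1 filled point for the EBC1-R array and 1 open point for the EBC1 array, grouped by role. The long lines belong to EGLN3, PFKFB3, BNIP3, P4HA1, P4HA2 and NDRG1, and the points of GAPDH and LDHB coincide.

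Glycolytic enzymes were higher by small amounts. Of 16 measured, 13 were higher in EBC1-R, none of them 2-fold, and 3 were lower. Among the 9189 genes above the level filter, 4557 were higher by any amount and 2.13% by 2-fold or more. The largest differences were 0.65 for ENO2, 0.64 for TPI1 and 0.63 for ALDOC, or 1.55-fold to 1.57-fold. Those 3 of the 16 (18.8%) passed 1.5-fold, against 4.41% of all genes. All 16 enzymes were above the level filter, where the share was larger, with 646 of 9189 genes past 1.5-fold. GAPDH differed by 0.002 and LDHB by 0.02, so only 11 of the 13 were higher by more than 0.1. The sign of GAPDH turned with the scaling, and its difference lay between -0.03 and 0.03 over the alternatives tried.

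In the order of the pathway, the hexokinases, which trap glucose as glucose 6-phosphate, were both higher. HK2, the form induced in many tumours and a HIF target, was at 9.71 in EBC1-R and 9.26 in EBC1, and HK1 at 8.12 in EBC1-R and 7.88 in EBC1. GPI, which forms fructose 6-phosphate, was at 12.16 in EBC1-R and 11.78 in EBC1. These differences ran from 0.24 to 0.44, or up to 1.36-fold. The phosphofructokinase genes did not share a direction. PFKM was 1.34-fold and PFKL 1.14-fold higher, and PFKP was 1.17-fold lower, at 10.05 in EBC1-R and 10.28 in EBC1.

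In the aldolase and triose phosphate steps, ALDOC was at 8.78 in EBC1-R and 8.15 in EBC1, and ALDOA at 10.66 in EBC1-R and 10.51 in EBC1. The gap between the pair's differences was 0.47. TPI1, which interconverts the triose phosphates, was at 11.21 in EBC1-R and 10.58 in EBC1. GAPDH, often used as a reference gene, had 13.67 on both arrays. It stood at the 99.98th percentile of probe sets on each.

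From PGK1 to lactate the enzymes differed in direction. PGK1, which makes the first ATP of glycolysis, was at 12.45 in EBC1-R and 12.12 in EBC1, or 1.25-fold higher. The 5 probe sets that name PGAM1 together with PGAM4 gave differences from 0.06 to 0.07. ENO2, the enolase known from neurons, was at 10.21 in EBC1-R and 9.56 in EBC1. ENO1, the enolase of most tissues, was at 13.01 in EBC1-R and 13.10 in EBC1. The 2 enolases thus differed in direction, by 0.75 between their differences.

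PKM, which encodes the pyruvate kinases M1 and M2, was the enzyme with the largest decrease. It was at 12.08 in EBC1-R and 12.58 in EBC1, a difference of -0.50 or 1.41-fold lower. Only 4.36% of all genes had a difference this low or lower. The probe set does not separate the splice forms M1 and M2 in these data. LDHA, which turns pyruvate into lactate, was at 12.65 in EBC1-R and 12.31 in EBC1, or 1.27-fold higher. LDHB, the subunit that prevails in oxidative tissues, was at 11.73 in EBC1-R and 11.71 in EBC1.

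**Figure D2:**
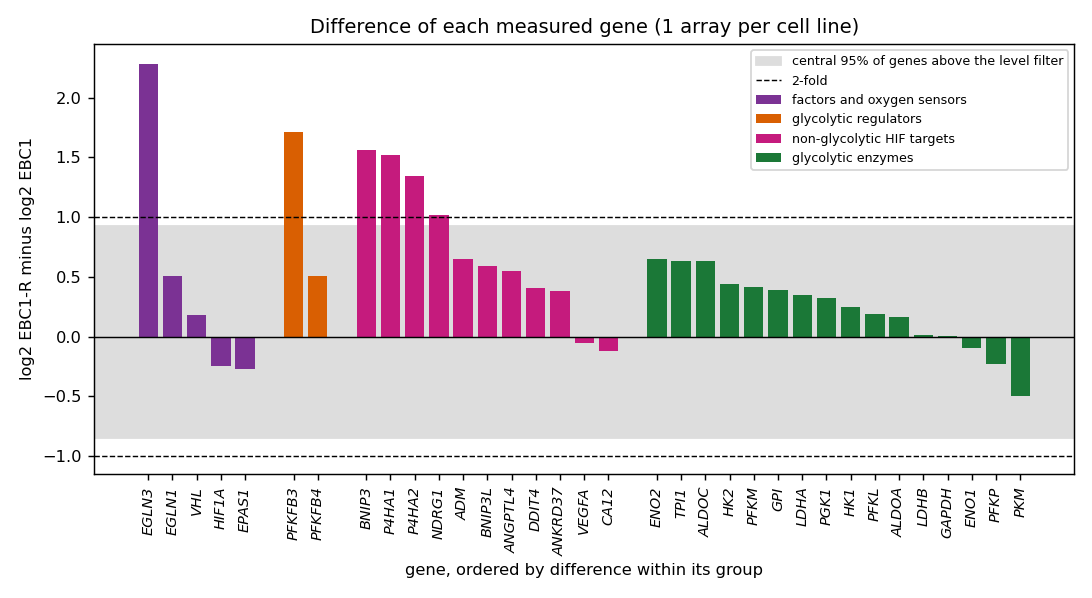
Difference of each measured gene, log2 EBC1-R minus log2 EBC1, as bars ordered by size within each role, with 1 array per cell line. The grey band holds 95% of genes above the level filter (-0.85 to 0.92) and the dashed lines mark 2-fold. The 6 bars past the upper line are EGLN3, PFKFB3 and 4 HIF targets outside glycolysis, and no glycolytic enzyme leaves the band.

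Set side by side, the HIF targets outside glycolysis had a median difference of 0.59 over 11 genes and the glycolytic enzymes 0.28 over 16, against -0.03 over all 18377 genes. The groups overlapped: 4 of the 11 targets lay above the highest enzyme, and 3 of the 16 enzymes lay above the target median. The share of genes that were higher was nearly equal, 81.8% of targets and 81.3% of enzymes. By the 2-fold size, 4 of 11 targets (36.4%) and 0 of 16 enzymes were higher, and neither group had a member 2-fold lower. Among genes above the level filter, 2.13% were higher and 1.67% lower by that size. The 0 of 16 enzymes is therefore near the share of genes at large. No test of this contrast was possible with 1 array per line.

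Probe set brightness moved with this contrast. PGK1, PKM and LDHA had a mean level between 12 and 13, where 1 of 128 genes was at least 2-fold higher. GAPDH and ENO1 lay above 13, where 0 of 17 genes were. In the classes from 8 to 12 the share was 1.27% to 2.25%. Restricted to genes with a mean level from 8 to 12, the median was 0.65 for targets and 0.40 for enzymes. The counts at 2-fold were again 4 and 0, from smaller groups. The restriction left out the dimmer targets CA12 and ANKRD37, which had small differences, and the enzymes HK1, PGK1, PKM, LDHA, GAPDH and ENO1. This restriction was chosen after the values were seen. Whether brightness had a part in the contrast was not tested.

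**Figure D3:**
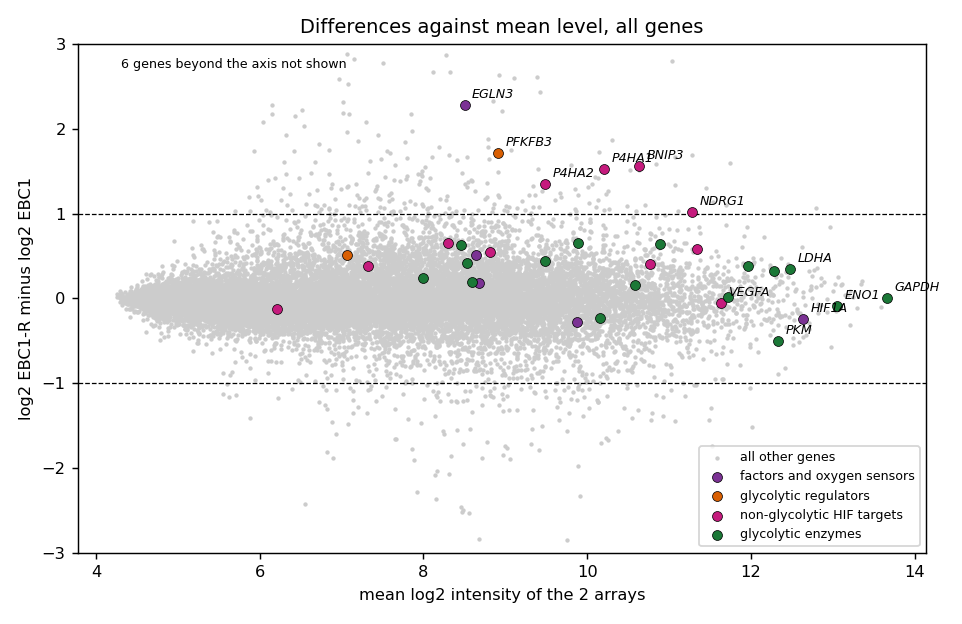
Difference between the lines (log2 EBC1-R minus log2 EBC1) against the mean log2 intensity of both arrays for all genes in grey, with the 34 measured genes coloured by role. Dashed lines mark 2-fold, and 6 genes beyond 3 log2 units are not drawn. Of the coloured genes, the 6 past 2-fold sit at mean levels between 8 and 12, and GAPDH and ENO1, with mean levels above 13, lie near 0.

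Within enzyme families encoded by several genes, the differences were set against each other, since levels of different probe sets are not comparable. The difference of HK2 exceeded that of HK1 by 0.20, that of ALDOC exceeded ALDOA by 0.47, that of ENO2 exceeded ENO1 by 0.75, and that of LDHA exceeded LDHB by 0.33. For PFKFB3 and PFKFB4 the gap was 1.20. P4HA1 and P4HA2 differed by 0.18 and EPAS1 and HIF1A by 0.03. As a rough scale, probe sets of the same gene had a pooled SD of 0.16 in their difference over 374 genes with several probe sets. This is the SD of 1 probe set around the mean of its gene. A gap takes 1 such value from each gene of a pair, so the SD understates the scale for gaps. That SD describes agreement within this pair of arrays and not the spread between cultures.

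Promoter sequences are shown for 3 of the genes at least 2-fold higher (EGLN3, BNIP3, P4HA1) and for 2 glycolytic enzymes (PGK1 and LDHA). These 2 enzymes are well-known HIF targets. The core letters of the response element can be looked for in each sequence. Each line gives the 250 bases before an annotated start, 5′ to 3′ on the strand of the gene, from RefSeq (GRCh38.p14), with the first window listed for LDHA. Capitals mark ACGTG or GCGTG on either strand, so a match on the opposite strand reads CACGT or CACGC, and CACGTG matches on both strands.
EGLN3, chr14:33951075-33951324, minus strand: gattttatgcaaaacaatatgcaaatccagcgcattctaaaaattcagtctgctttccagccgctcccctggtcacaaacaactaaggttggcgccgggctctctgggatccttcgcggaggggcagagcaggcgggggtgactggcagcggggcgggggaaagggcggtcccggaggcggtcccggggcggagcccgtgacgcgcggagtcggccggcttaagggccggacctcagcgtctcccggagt
BNIP3, chr10:131981924-131982173, minus strand: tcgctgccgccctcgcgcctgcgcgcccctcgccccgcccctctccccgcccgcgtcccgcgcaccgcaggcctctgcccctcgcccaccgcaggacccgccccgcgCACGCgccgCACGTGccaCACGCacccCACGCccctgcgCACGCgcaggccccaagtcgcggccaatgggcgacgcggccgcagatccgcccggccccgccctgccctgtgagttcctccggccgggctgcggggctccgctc
P4HA1, chr10:73096867-73097116, minus strand: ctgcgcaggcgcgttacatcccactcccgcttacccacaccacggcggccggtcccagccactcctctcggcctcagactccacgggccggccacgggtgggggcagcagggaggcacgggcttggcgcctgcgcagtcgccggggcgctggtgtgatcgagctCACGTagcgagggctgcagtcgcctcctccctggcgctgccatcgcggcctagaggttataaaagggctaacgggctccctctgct
PGK1, chrX:78103998-78104247, plus strand: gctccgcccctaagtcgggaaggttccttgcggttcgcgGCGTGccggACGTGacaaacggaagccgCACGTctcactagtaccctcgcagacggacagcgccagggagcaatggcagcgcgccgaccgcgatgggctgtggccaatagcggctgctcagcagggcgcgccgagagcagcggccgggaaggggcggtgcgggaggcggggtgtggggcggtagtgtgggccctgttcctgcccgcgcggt
LDHA, chr11:18394313-18394562, plus strand: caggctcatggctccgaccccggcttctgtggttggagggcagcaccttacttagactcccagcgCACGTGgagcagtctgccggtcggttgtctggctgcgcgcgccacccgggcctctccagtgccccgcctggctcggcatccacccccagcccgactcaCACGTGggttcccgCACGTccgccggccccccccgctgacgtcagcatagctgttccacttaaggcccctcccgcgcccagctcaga

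In these 5 windows the number of matches did not follow the order of the differences. The LDHA window held 5 matches of ACGTG, counted on both strands, and LDHA was 1.27-fold higher. The PGK1 window held 2 matches of ACGTG and 1 of GCGTG. The BNIP3 window held 2 matches of ACGTG and 4 of GCGTG within 44 bases, and the P4HA1 window 1 of ACGTG. The EGLN3 window held none, while EGLN3 had the largest difference. No match says only that these letters are absent from this window. Windows were listed for 33 of the 37 genes. ACGTG was found in the first window of 16 of the 33 (48.5%), of 6 of 9 targets (66.7%) and of 8 of 17 enzymes (47.1%), against 21.1% of the first windows of 14210 measured genes and 18.5% of all 35116 windows. The 9 targets had 1 window each and included CA9, while NDRG1, VEGFA and BNIP3L had none listed. For genes with several windows the first listed was used. Later windows of TPI1, PFKM, PFKP and PFKFB3 held ACGTG where the first did not, so the shares depend on this choice. GCGTG was found in 13 of the 33 (39.4%), against 39.7% of first windows and 32.2% of all windows. The genes were listed because they are known HIF targets or enzymes of a pathway HIF controls, so these shares are a description of the list.

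A further list of HIF targets was set beside these genes. Of 32 measured, 28 were higher in EBC1-R, against 43.3% of all genes, and 6 were higher by 2-fold or more, against 1.26% of all genes. None was 2-fold lower. The median difference was 0.36, with a range from -0.18 to 1.98. Of the 32, 26 were above the level filter, where 4557 of 9189 genes were higher by any amount and 2.13% by 2-fold or more. Some of the 28 were nearly level, such as STC2 (0.02) and INSIG2 (0.04), named after their values were seen. PPP1R3C, which directs protein phosphatase 1 to glycogen, was 3.94-fold higher, at 8.84 in EBC1-R and 6.86 in EBC1, and passed the level filter through EBC1-R alone. PLOD2, a lysyl hydroxylase of collagen, was 3.18-fold higher, at 11.91 in EBC1-R and 10.24 in EBC1. PDK1, the kinase that shuts off pyruvate dehydrogenase and so diverts pyruvate from the mitochondria, was 2.82-fold higher, at 9.66 in EBC1-R and 8.17 in EBC1. The histone demethylase KDM3A was 2.68-fold higher, with only its EBC1-R value (8.80) above the filter. LOXL2, a collagen cross-linking oxidase, and GBE1, the glycogen branching enzyme, were each 2.33-fold higher. The glucose transporters, named after their values were seen, went in opposite directions. SLC2A1 was at 12.66 in EBC1-R and 12.25 in EBC1, a difference of 0.41. SLC2A3, under the level filter on both arrays, was at 6.24 in EBC1-R and 6.42 in EBC1, the lowest difference of the 32.

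Components that act with the HIF alpha subunits differed in both directions. Of 11 measured, 7 were higher and 4 lower, none of them 2-fold, with a median of 0.03, and 9 of the 11 were above the level filter. Over all genes measured, 43.3% were higher by any amount and 1.26% by 2-fold or more, so having none at 2-fold is near that share. HIF3A and EP300, counted as higher, differed by only 0.02 and 0.03. ARNT, the beta subunit, was 1.62-fold higher, at 9.22 in EBC1-R and 8.52 in EBC1. CITED2, which competes with HIF for a coactivator, was 1.32-fold higher, and CUL2, the scaffold of the VHL ligase, was 1.31-fold higher. The adaptors ELOB and ELOC of the same ligase were 1.43-fold and 1.26-fold lower.

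Enzymes around the glycolytic pathway were set beside its main enzymes. Of 15 other isozymes and branch enzymes measured, 8 were higher and 7 lower, with a median of 0.10. Under the level filter were 10 of the 15. The shares over all genes measured were 43.3% higher by any amount and 1.26% higher by 2-fold or more. BPGM, which makes 2,3-bisphosphoglycerate in a side branch, was the member at least 2-fold higher (2.09-fold), at 8.30 in EBC1-R and 7.24 in EBC1, and passed the filter through EBC1-R alone. TIGAR, which opposes PFKFB3 by removing fructose 2,6-bisphosphate, was 1.49-fold higher. All 7 pentose phosphate genes measured were higher by any amount, against 43.3% of all genes, with a median of 0.19 and 4 of the 7 above the level filter. TALDO1 (transaldolase) led them at 0.42, and RPE, counted as higher, differed by only 0.01. PGLS, named after its value was seen and under the level filter on both arrays, differed by only 0.02. Of 7 gluconeogenic genes 5 were lower, against 55.5% of all genes, with a median of -0.14, and 3 of the 7 were above the level filter. Of those 3, the mitochondrial PCK2 was 1.67-fold lower, at 8.36 in EBC1-R and 9.10 in EBC1.

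**Figure D4:**
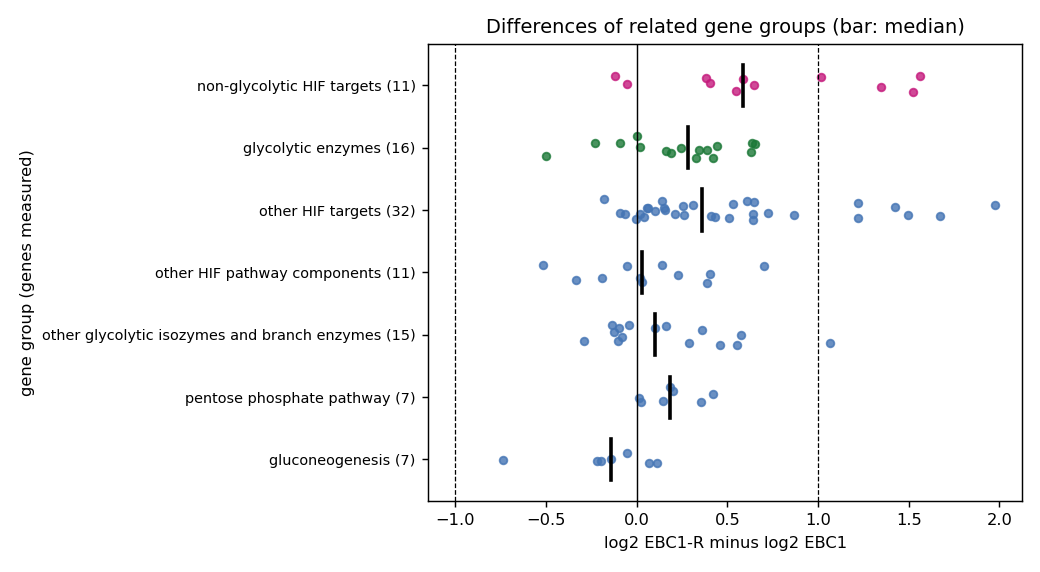
Differences (log2 EBC1-R minus log2 EBC1) of the genes in each group, 1 point per gene, with a black bar at the median and dashed lines at 2-fold. The medians lie at 0.59 for non-glycolytic HIF targets, 0.28 for glycolytic enzymes and 0.36 for other HIF targets, and at -0.14 for gluconeogenesis.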

How the data were processed

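RNA of EBC1-R and EBC1 cells was measured on 1 one-colour Affymetrix array each. Total RNA was extracted with Trizol and labelled by a whole-transcript protocol, per the labels' protocols. The authors deposited 1 log2 intensity per probe set and array (28869 probe sets). The log2 scale was taken from the range of the values (4.22 to 14.2 in EBC1-R, 4.21 to 14.1 in EBC1), and the sources used here do not give how the authors corrected, summarised and normalized the signals. The array type named in the extraction protocol does not match the probe identifiers, which belong to a whole-transcript gene array.

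Probe sets with exactly 1 gene symbol (19310) were averaged per gene, 18377 genes in all. Those with several symbols (1752) or none (7807) were left out. Gene identifiers of 19279 were found in the RefSeq table (GRCh38.p14), which changed no symbol. Promoter letters came from RefSeq tables, searched in the 250 bases before each start on both strands. Without detection calls, a low intensity cannot be told from background.

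With 1 array per line there is no replicate, no test and no p-value, and all sizes describe this pair of arrays. The members and lists were chosen with earlier results of these data known. All 37 members are named, and of each further list up to 6 genes with the largest absolute difference above the level filter, others being marked as named after their values were seen. Alternatives were quantile normalization, median centring, removal of a lowess trend (span 0.2), 16 added to the linear intensities as a pseudocount, the brightest probe set, probe sets with several symbols, other level filters, and thresholds of 1.5-fold and 3-fold. The counting was tested on simulated data. Python 3.11.15, pandas 2.3.3, numpy 2.4.6 and statsmodels 0.14.6 were used.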

Additional observations from a re-analysis of the deposited data

How the results depend on the processing

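All 34 measured genes kept their side of the 2-fold size under the 6 other ways of scaling or summarising the values, and 33 kept their sign, the exception being GAPDH (-0.03 to 0.03). Taking the brightest probe set or adding probe sets with several symbols could not change any of the 34 values. Each of these genes had 1 probe set, and no probe set with several symbols named any of them. Median centring shifted every difference by the same small amount. The medians of targets and enzymes and the gap between them (0.30) moved by less than the SD of 0.16 between probe sets of a gene, with the gap between 0.25 and 0.34. The counts depended on the size chosen: at 1.5-fold, 3 enzymes were higher, and 646 genes were higher and 505 lower over all genes above the level filter. At 3-fold, 0 targets were higher, and 58 genes were higher and 36 lower. All other counts stayed within 1.5 times their value. Levels with no detection call, 1 array per line and 1 probe set per gene limit every value. No paired analysis was possible because each line has a single array and no replicate.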

Other observations

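The 9 targets higher in EBC1-R and the further HIF targets can also be sorted by what their products do, a grouping made after the values were seen and given as values only. Genes that modify or cross-link collagen were all higher: P4HA1, P4HA2, PLOD2, LOX and LOXL2 had differences from 0.64 to 1.67, with 4 of the 5 at least 2-fold. Over all genes measured, 43.3% were higher and 1.26% at least 2-fold higher. Genes of glycogen synthesis were all higher too: PGM1, GYS1, GBE1 and PPP1R3C had differences from 0.31 to 1.98, with 2 of the 4 at least 2-fold. LOX was at 8.54 in EBC1-R and 7.90 in EBC1, PGM1 at 11.31 in EBC1-R and 10.67 in EBC1, and GYS1 at 9.40 in EBC1-R and 9.09 in EBC1. The mitophagy receptors BNIP3 and BNIP3L were both higher, by 1.56 and 0.59, with 1 of the 2 at least 2-fold. Of the glucose transporters, 1 of 2 was higher and none 2-fold, with a median of 0.12. The demethylases KDM4B and KDM4C differed by 0.14 and 0.21, and KDM3A by 1.42. All of these genes came from lists of HIF targets, so the counts describe those lists.

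The 6 members at least 2-fold higher were set beside the genes next to them. Each of the 6 lay above all 10 of its nearest measured neighbours in RefSeq order (5 on each side, above the level filter). The 6 were picked for their size, which only 2.13% of genes above the level filter reached. Most sets of 10 neighbours would therefore lie below them, and this count cannot show whether a region shared the difference. The median of the neighbours was 0.20 for EGLN3, 0.17 for PFKFB3, -0.40 for BNIP3, 0.07 for P4HA1, 0.31 for P4HA2 and -0.13 for NDRG1. ENO2 and TPI1 lie close together on chromosome 12 and are among each other's neighbours. Around ENO2 the median was 0.53, with LRRC23, the nearest such gene on one side, at 0.68 and ATN1 on the other side at -0.28. Around TPI1 it was 0.11, and around GAPDH, on the same chromosome, -0.04. This comparison was chosen after the values were seen.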
